A study of Bos taurus with 24 samples.

Results

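Cultured subcutaneous fat cells of Holstein cows were given either palmitic acid alone (PA) or a mixture of 60% palmitic and 40% oleic acid (MIX), and their RNA was compared at day 7. The comparison holds 6 of the 24 RNA-seq libraries of the study, chosen by the treatment and time in their labels: 3 MIX and 3 PA libraries, 1 of each from cows 1, 2 and 3. Pre-adipocytes had been isolated from subcutaneous fat and induced to become adipocytes. All groups shared one medium with serum, insulin, acetate and troglitazone, a PPARG agonist, and had received isobutylmethylxanthine and dexamethasone in the early phase of induction only. The fatty acids were then given for 7 days at 300 µM in total, so that MIX cells received 40% of the same dose as oleic acid in place of palmitic acid. Libraries of the same 3 cows without added fatty acid (CON) and with oleic acid alone at 300 µM (OA) were used for the estimate of spread and are given beside the values. The other doses and mixtures and the PPARα antagonist cultures were not analysed here.

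Palmitic acid is the main saturated and oleic acid the main monounsaturated fatty acid released by bovine fat tissue. Both are activated to acyl-CoA and then stored as triacylglycerol in lipid droplets, burned in mitochondria and peroxisomes, or built into membranes. Both can activate PPAR receptors, which switch on genes such as ANGPTL4, CPT1A and PLIN2. Unsaturated fatty acids are known to lower the activity of SREBP factors, which drive desaturases and the enzymes of fatty acid and cholesterol synthesis. An excess of palmitate over unsaturated fatty acid is known in many cell types to strain the endoplasmic reticulum and to feed ceramide synthesis.

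The values are FPKM, fragments scaled to gene length and library size. Reads recovered from them numbered 14118798 to 19859107 in PA and 14827192 to 23784643 in MIX, and a count of 0 allows a level of up to 0.126 to 0.212 CPM, depending on the library (3 counts, counting error only). The cells were labelled adipocytes, but of 18 adipocyte markers found 7 averaged at least 1 FPKM over the 6 libraries, and ADIPOQ, LGALS12 and THRSP had no read. PPARG, the master regulator of adipocytes, averaged 0.176 ± 0.0621 FPKM in PA and 0.248 ± 0.126 FPKM in MIX (SD, n = 3), and FABP4 averaged 0.397 ± 0.63 and 0.535 ± 0.78 FPKM. Preadipocyte and fibroblast markers were abundant: 14 of 19 averaged at least 1 FPKM, although DLK1 was at 0 in the 6 libraries. Their summed level was 11607 to 21642 FPKM in PA and 11203 to 21355 FPKM in MIX, and the summed level of adipocyte markers was 58.3 to 112 and 59.7 to 102 FPKM, so that both sums overlapped between the groups. Smooth muscle and myofibroblast markers were abundant as well, with 17 of 20 found averaging at least 1 FPKM. Their summed level was 6566 to 12642 FPKM in PA and 6736 to 13514 FPKM in MIX. No endothelial marker of 12 averaged 1 FPKM, and 2 of 12 epithelial and mesothelial markers did. Of 17 macrophage and leukocyte markers 4 averaged at least 1 FPKM and 6 were at 0, with a summed level of 8.03 to 26.6 FPKM in PA and 6.60 to 26.6 FPKM in MIX. In bulk RNA, fewer cells of a type and less RNA per cell cannot be told apart.

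No gene differed between MIX and PA past the threshold. Of 12615 genes tested with limma, with cow as a block, 0 (0%) reached an adjusted p under 0.05. At an unadjusted p under 0.05 there were 279 genes higher (2.21%) and 215 lower (1.7%) in MIX. edgeR on the recovered reads also called 0 genes (408 at an unadjusted p under 0.05), as did DESeq2 (168). MIX was higher in all 3 cows for 1844 genes (14.6%) and lower in all 3 for 1543 genes (12.2%). On average over the cows MIX was higher for 6709 of the genes tested (53.2%) and lower for 5905. That share is the background for the list counts below. In the 6 libraries, differences between cows made up 89.2% of the variance of log2(FPKM + 1), the treatment 3.72% and the rest 7.08%. The treatment share has 1 degree of freedom and the rest 2.

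The differences were small, and for most genes the data limited how large they could be. The median SE of a MIX minus PA difference was 0.08 on the log2(FPKM + 1) scale, on which all differences below are given. The 95% interval was not adjusted for the number of genes, and its limits are fold changes of FPKM + 1. It lay within 1.5-fold either way for 96.4% of 11813 protein-coding genes and within 2-fold for 99.5%. For the 6651 tested genes of any type with both group means under 10 FPKM, the shares were 87.7% and 94.4%. At such levels a fold change of FPKM itself can be larger than these limits. On this scale, which compresses the differences of low genes, 33 genes differed by more than 1 and 0 of them were protein-coding: 15 were snoRNAs, 13 miRNAs, 4 snRNAs and 1 an rRNA. The lowest adjusted p, 0.602, belonged to RF00091, a short noncoding RNA named here for its p, at a mean of 1.63 FPKM in MIX and 0.397 FPKM in PA. For the genes described below the adjusted p was 0.999 in limma's fit, and where intervals that do not hold 0 are given they are not adjusted for the number of genes.

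**Figure D1:**
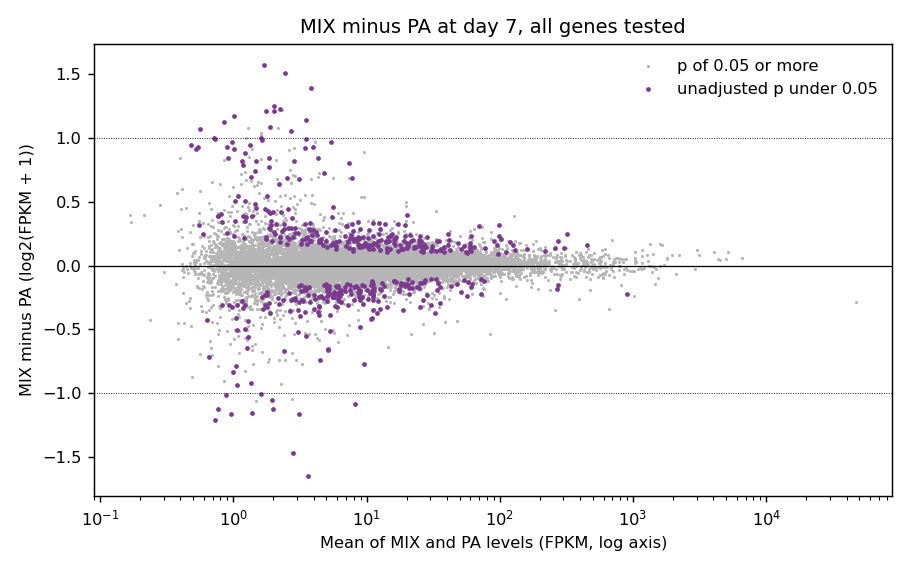
MIX minus PA difference of each of the 12615 genes tested at day 7 (vertical axis, log2(FPKM + 1)) against the mean level of both groups (horizontal axis, FPKM, log axis). Purple points have an unadjusted p under 0.05, dotted lines mark a difference of 1 on this scale, and 33 genes lie beyond them.

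Of 16 tested genes that respond to PPAR receptors, 6 averaged higher and 10 lower in MIX. Their median difference was -0.04, against 0.01 for all genes tested, and was -0.01 without cow 2. The lowest member was FABP3 at -0.53 ± 0.29, described with the fatty acid carriers. PLIN2, which coats lipid droplets, was at 50.0, 31.2 and 65.0 FPKM in PA of cows 1 to 3 and at 51.4, 26.4 and 66.4 FPKM in MIX. MIX was the higher of the pair in cows 1 and 3 and the lower in cow 2. The difference was -0.06 ± 0.07 (SE, n = 3), with a 95% interval from -0.21 to 0.10, and 0.03 without cow 2. The same PLIN2 interval is 0.864- to 1.07-fold of FPKM + 1.

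ANGPTL4, a secreted inhibitor of lipoprotein lipase, was at 44.4, 10.5 and 63.4 FPKM in PA and 41.5, 11.5 and 76.1 FPKM in MIX, a difference of 0.10 ± 0.13 (-0.18 to 0.38), and 0.02 without cow 3. Its level followed the cow, lowest in cow 2 and highest in cow 3 under both treatments. CPT1A, the gate of mitochondrial fatty acid oxidation, was at 26.5, 17.2 and 13.1 FPKM in PA and 26.7, 18.3 and 14.0 FPKM in MIX, a difference of 0.06 ± 0.10 (-0.17 to 0.28). The receptors differed as little: PPARA by 0.09 ± 0.10 and PPARD by -0.01 ± 0.06. PDK4, CD36, FABP4 and PPARG stayed below the filter of 1 FPKM in 3 libraries and were not tested.

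The enzymes of fatty acid oxidation and of triacylglycerol assembly stayed close to the level in PA. Of 28 oxidation genes, 10 averaged higher and 18 lower in MIX, with a median of -0.03, and -0.01 without cow 2. CROT, which exports shortened acyl groups from peroxisomes, was higher in 3 of 3 cows, at 12.5, 21.2 and 24.3 FPKM in MIX against 11.5, 19.0 and 21.9 FPKM in PA (0.13 ± 0.06, 0.01 to 0.26). OA lay higher still, at 14.9, 21.1 and 26.1 FPKM, in cows 1 and 3. Of 19 lipid droplet and triacylglycerol genes, 10 averaged higher and 9 lower, with a median of 0.01. FITM2, which helps droplets bud from the endoplasmic reticulum, was at 14.0, 31.9 and 19.0 FPKM in MIX and 13.9, 27.6 and 16.0 FPKM in PA (0.15 ± 0.06). PA and MIX of FITM2 were alike in cow 1, and MIX was higher in cows 2 and 3.

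**Figure D2:**
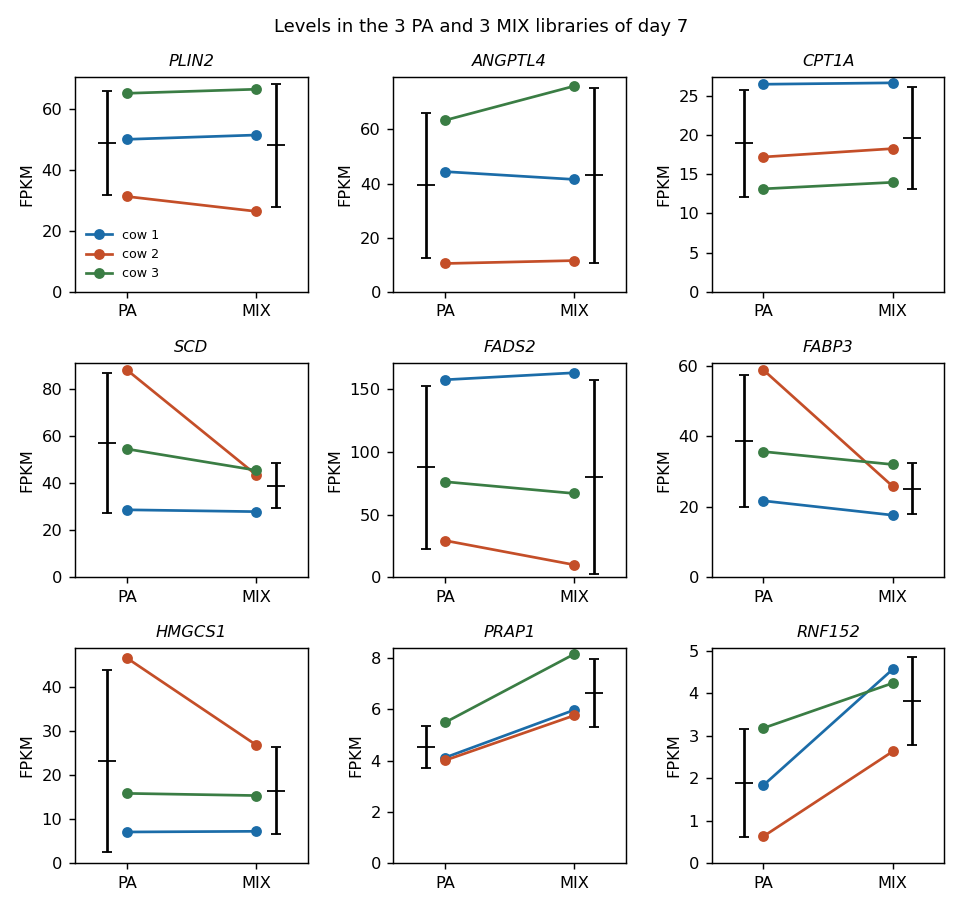
Levels (vertical axes, FPKM) of 9 genes in the 3 PA and 3 MIX libraries of day 7, with a line joining the libraries of each cow and, beside them, the group mean ± SD. PLIN2, ANGPTL4 and CPT1A run nearly level, and SCD, FADS2, FABP3 and HMGCS1 are lower in MIX mainly in cow 2. PRAP1 and RNF152 are higher in MIX in 3 of 3 cows, which was part of the rule that named them.

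Genes of cholesterol synthesis and uptake averaged lower in MIX. Of the 28 members, all of them tested, 26 averaged lower and 2 higher, with a median of -0.22, the lowest of the lists with at least 5 tested members. MIX was lower in all 3 cows for 10 members and higher in all 3 for 0, against 12.2% and 14.6% of all genes. The median was 0.03 in cow 1, -0.42 in cow 2 and -0.14 in cow 3, and the members lower in MIX numbered 12, 27 and 24. Without cow 2 the median was -0.04, with 23 members lower. 1 of the 28 had an unadjusted p under 0.05 and 0 passed the adjusted threshold.

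HMGCS1, an early enzyme of the mevalonate pathway, was at 7.05, 46.7 and 15.8 FPKM in PA and 7.20, 26.9 and 15.4 FPKM in MIX. Cow 2 alone shows a gap, and the groups overlap widely because cow 1 is low under both treatments. The difference was -0.26 ± 0.28 (-0.89 to 0.36), and -0.01 without cow 2. EBP, a sterol isomerase late in the pathway, was lower in 3 of 3 cows, at 15.7, 19.0 and 23.0 FPKM in MIX against 17.2, 24.6 and 26.3 FPKM in PA (-0.22 ± 0.09, -0.42 to -0.02).

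The squalene-forming enzyme FDFT1 was at 14.7, 31.8 and 23.8 FPKM in PA and 13.0, 21.2 and 21.6 FPKM in MIX (-0.29 ± 0.15), lower in 3 of 3 cows. INSIG1, which holds SREBP in the endoplasmic reticulum and is itself an SREBP target, was at 4.91, 21.4 and 14.3 FPKM in PA and 5.08, 13.7 and 13.2 FPKM in MIX (-0.22 ± 0.29), and its difference was -0.03 without cow 2. SREBF2, the transcription factor of the pathway, was at -0.04 ± 0.12, and its escort SCAP was 1 of the 2 members that averaged higher, with NPC1, which moves cholesterol out of lysosomes.

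Of 22 tested genes of fatty acid synthesis and desaturation, 16 averaged lower and 6 higher in MIX, with a median of -0.09. MIX was lower in all 3 cows for 7 members and higher in all 3 for 1, against 12.2% and 14.6% of all genes. The median was -0.01 in cow 1, -0.22 in cow 2 and -0.09 in cow 3, and -0.04 without cow 2. SCD, which makes oleate from stearate, was at 28.6, 88.0 and 54.5 FPKM in PA and 27.9, 43.5 and 45.4 FPKM in MIX. The gap was wide in cow 2, small in cow 3 and close to nothing in cow 1. The SCD difference was -0.43 ± 0.29 (-1.08 to 0.22), and -0.15 without cow 2.

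FADS2 and FADS1, the desaturases of polyunsaturated fatty acids, had their largest gaps in the same cow. FADS2 was at 157, 29.3 and 76.1 FPKM in PA and 163, 9.94 and 66.8 FPKM in MIX (-0.53 ± 0.29, -1.18 to 0.11), with -0.07 without cow 2. FADS1 was at 40.2, 24.8 and 31.4 FPKM in PA and 39.1, 13.4 and 28.7 FPKM in MIX (-0.33 ± 0.17), with -0.08 without cow 2. Both genes were lowest in cow 2 in either group, so that the widest gap belonged to the lowest FADS2 and FADS1 levels but to the highest SCD and HMGCS1 levels in PA.

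FASN, the fatty acid synthase, was at 20.6, 49.8 and 37.8 FPKM in PA and 23.5, 34.7 and 35.0 FPKM in MIX (-0.15 ± 0.19), higher in MIX in cow 1. Without cow 2 the FASN difference was 0.03. ELOVL6, which lengthens palmitate to stearate, was at 4.20, 9.43 and 7.78 FPKM in PA and 4.18, 6.65 and 6.52 FPKM in MIX (-0.22 ± 0.10, -0.44 to -0.01). SREBF1, which encodes the factor that drives these genes, was at 34.6, 54.4 and 40.0 FPKM in PA and 35.1, 41.3 and 36.4 FPKM in MIX (-0.17 ± 0.09). MLXIPL, a carbohydrate-sensing factor, stood at the other end of the list at 0.21 ± 0.15, with 5.34 FPKM in MIX and 2.97 FPKM in PA of cow 2. Without cow 2 the differences of ELOVL6 and SREBF1 were -0.11 and -0.06.

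**Figure D3:**
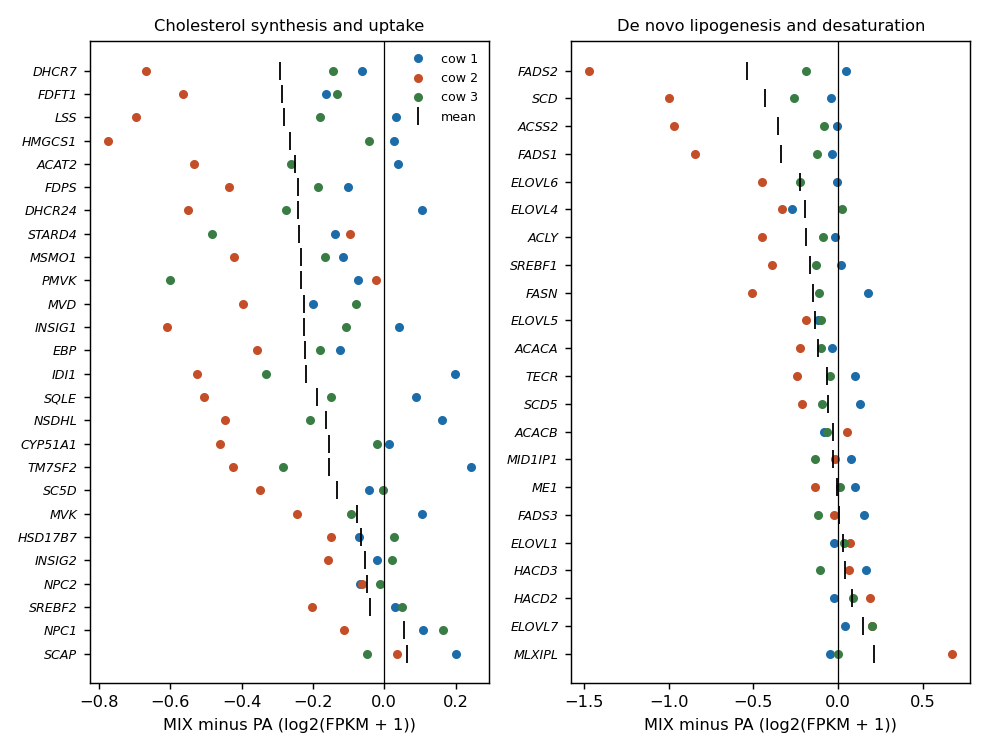
MIX minus PA difference (horizontal axes, log2(FPKM + 1)) of 26 tested members of the cholesterol list and the 22 of the lipogenesis list, 1 point per cow and a tick for the mean. The points of cow 2 lie farthest to the left for most members, and those of cow 1 lie around 0.

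The libraries of the other treatments place these values. In cow 2 the PA and CON libraries were alike and high for SCD, at 88.0 and 86.8 FPKM, with MIX at 43.5 and OA lowest at 31.8 FPKM. In that cow 23 of the 28 cholesterol genes were in the order PA, MIX, OA from high to low, and MIX was under CON for 27. MIX was under PA for 27 of the 28 there, which is already part of that order. The share of all genes in such orders was not counted in any cow. In cow 3 CON was highest for SCD at 74.7 FPKM, followed by PA, MIX and OA at 54.5, 45.4 and 37.8 FPKM. There 13 of the 28 were in the order PA, MIX, OA, and MIX was under CON for 27, as PA was for 23. In cow 1 the SCD levels were 27.9 FPKM in CON, 28.6 in PA, 27.9 in MIX and 35.5 in OA, and 3 of the 28 cholesterol genes had PA over MIX over OA. The PA library of cow 2 was the shallowest of the 6, at 14118798 reads, and the part of depth in these values was not tested. Each cow had 1 library a treatment, so whether cows differ in the MIX minus PA difference was not tested.

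**Figure D4:**
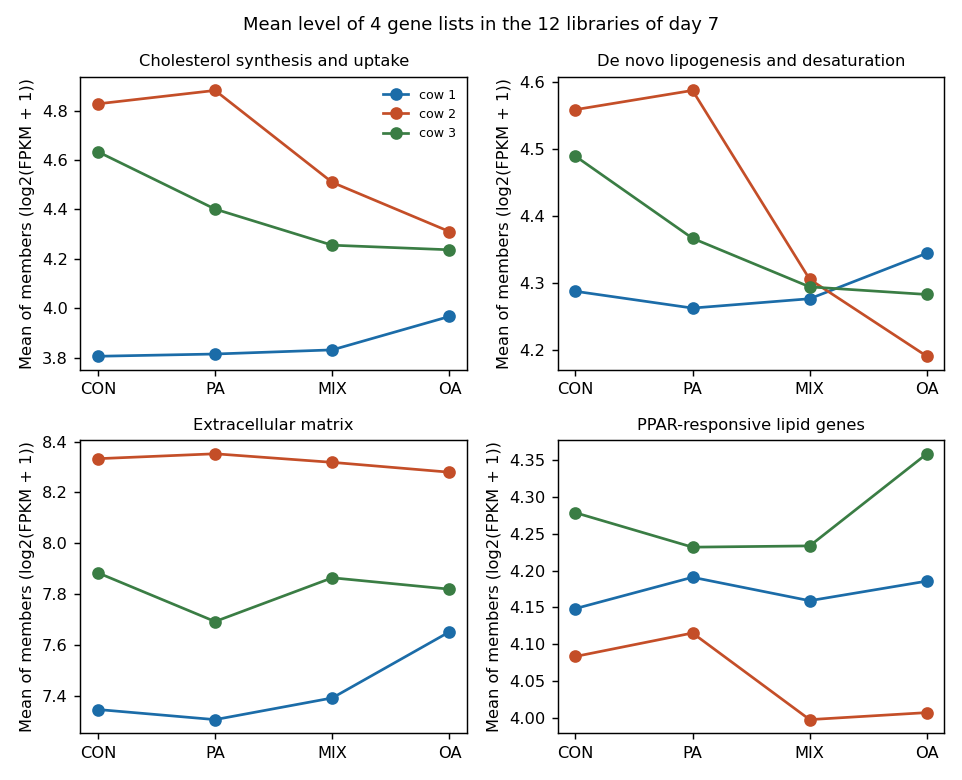
Mean level (vertical axes, log2(FPKM + 1)) over the tested members of 4 gene lists in the CON, PA, MIX and OA libraries of day 7, with 1 line per cow. The cholesterol and lipogenesis lists step down from PA to MIX in cows 2 and 3 and stay level in cow 1. For the matrix list PA is the lowest of the 4 in cows 1 and 3 and the highest in cow 2.

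Among genes of fatty acid uptake and activation, 8 of 16 averaged higher and 8 lower, with a median of -0.01. FABP3, a cytosolic fatty acid carrier, was lower in MIX in 3 of 3 cows, at 17.6, 25.8 and 32.0 FPKM against 21.7, 58.7 and 35.6 FPKM in PA. The gap was again widest in cow 2, and the groups overlap. The difference was -0.53 ± 0.29 (-1.19 to 0.13), and -0.22 without cow 2. ACSL4, an acyl-CoA synthetase that prefers arachidonate, was lower in 3 of 3 cows, at 101, 31.0 and 28.2 FPKM in MIX against 106, 42.4 and 33.0 FPKM in PA (-0.24 ± 0.08, -0.42 to -0.06), and -0.14 without cow 2. ACSL6, another acyl-CoA synthetase, averaged 2.87 ± 1.00 FPKM in MIX and 2.36 ± 0.912 FPKM in PA and was higher in 3 of 3 cows by similar steps of 0.24, 0.20 and 0.18 (0.21 ± 0.08).

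LXR targets and sterol efflux genes averaged lower for 6 of 7 members, with a median of -0.12, and -0.03 without cow 2. ABCA1, which exports cholesterol, was at 20.5, 0.693 and 3.99 FPKM in MIX and 23.3, 1.73 and 3.12 FPKM in PA (-0.20 ± 0.18), lower in cows 1 and 2 and higher in cow 3, and 0.05 without cow 2. In ceramide and sphingolipid synthesis 17 of 24 members averaged higher and 7 lower, with a median of 0.05, and 0.02 without cow 3. SPHK1, which phosphorylates sphingosine, was higher in 3 of 3 cows, at 85.6, 150 and 91.4 FPKM in MIX against 76.1, 146 and 68.2 FPKM in PA (0.21 ± 0.08, 0.04 to 0.38), and 0.10 without cow 3. Of the serine palmitoyltransferase subunits that start ceramide synthesis, SPTLC1 differed by -0.05 and SPTLC2 by 0.08.

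The named genes with the smallest p lay outside the lists of lipid genes and were picked for 1 direction in all 3 cows. TMCO1 (ENSBTAG00000010009), an endoplasmic reticulum calcium channel, lies at 3105832 to 3191071 of chromosome 3 in the deposited table, whose build is not given in the sources used here. It was at 38.0, 38.1 and 41.0 FPKM in PA and 30.9, 33.3 and 30.7 FPKM in MIX. The groups do not overlap, and PA was the highest treatment on average, with 35.7 ± 0.794 FPKM in OA and 29.2 ± 1.91 FPKM in CON. The difference was -0.30 ± 0.06 (-0.42 to -0.17). ANAPC16, a subunit of the anaphase-promoting complex, was at 10.6, 15.6 and 11.5 FPKM in PA and 8.67, 12.3 and 8.03 FPKM in MIX (-0.35 ± 0.07), and CON and OA averaged 9.86 ± 1.32 and 9.68 ± 1.76 FPKM.

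RNF152, a lysosomal ubiquitin ligase that restrains mTORC1, had the largest difference of a named protein-coding gene on the log2(FPKM + 1) scale. It was at 1.83, 0.626 and 3.18 FPKM in PA and 4.57, 2.63 and 4.24 FPKM in MIX, with OA at 7.03, 2.96 and 5.28 FPKM and CON at 4.05, 2.58 and 5.10 FPKM. PA was the lowest treatment in each cow, although the MIX and PA ranges overlap across cows. The difference was 0.82 ± 0.17 (0.44 to 1.20), from 5 to 59 reads per library, and 0.65 without cow 2. PRAP1, a secreted lipid-binding protein known from the gut, was at 4.12, 4.01 and 5.49 FPKM in PA and 5.98, 5.77 and 8.17 FPKM in MIX. The groups do not overlap, and the steps were 0.45, 0.43 and 0.50 in cows 1 to 3. The PRAP1 difference was 0.46 ± 0.09 (0.26 to 0.66), and OA and CON averaged 6.51 ± 1.55 and 6.96 ± 2.72 FPKM. SCARF2, a scavenger receptor family member, was at 143, 107 and 130 FPKM in MIX and 124, 101 and 109 FPKM in PA (0.18 ± 0.04).

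The 10 named genes with the smallest p in each direction were picked by their MIX and PA values. That choice favours PA or MIX at an end of the 4 treatments, and the share over all genes was not counted. The mean of PA lay at the end for 6 of the higher and 6 of the lower genes. MIX lay at the end for 6 and 7 of them, and 2 and 3 genes counted in both. SORBS2, a cytoskeletal adaptor, was of the second kind, at 1.66, 7.31 and 3.61 FPKM in MIX, 1.08, 6.01 and 2.93 FPKM in PA and 3.15 ± 2.23 FPKM in OA (0.28 ± 0.07). RAB26, a small GTPase of secretory vesicles, was at 3.13, 2.00 and 2.70 FPKM in MIX and 4.27, 2.98 and 3.95 FPKM in PA, and CON and OA both averaged 3.61 FPKM (-0.39 ± 0.09). MYL12B, a myosin regulatory light chain, was at 17.8, 5.93 and 14.7 FPKM in MIX and 20.4, 9.15 and 17.6 FPKM in PA (-0.33 ± 0.08). The other named protein-coding genes differed by 0.19 to 0.34 higher (ATP11A, LRRC61, PCID2 and FAM155A) and by -0.32 to -0.28 (ZNF276, EFNA4, TRAPPC6A and POGLUT1). The remaining 4, RF00289, RF00153, RF00428 and RF00412, are snoRNAs, and those of RF00289 and RF00412 had 0 to 11 and 0 to 9 reads per library.

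Stress genes were near their PA level. HSPA5, the main chaperone of the endoplasmic reticulum, was at 151, 177 and 317 FPKM in PA and 152, 181 and 316 FPKM in MIX, a difference of 0.01 ± 0.05 (-0.10 to 0.13). Of 25 unfolded protein response genes 16 averaged higher and 9 lower, with a median of 0.02. ATF4, the central factor of the integrated stress response, was at 313, 197 and 242 FPKM in PA and 310, 192 and 244 FPKM in MIX (-0.01 ± 0.08). DDIT3, a death-promoting factor downstream of it, was lower in 3 of 3 cows, at 21.0, 21.9 and 9.90 FPKM against 21.6, 23.3 and 11.5 FPKM (-0.11 ± 0.09, -0.31 to 0.09).

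In the integrated stress response list 22 of 31 averaged higher and 9 lower in MIX, with a median of 0.05. MIX was higher in all 3 cows for 11 and lower in all 3 for 3, against 14.6% and 12.2% of all genes, and in cow 1 the median was -0.01 with 16 of the 31 lower. The highest member was PSPH, the last enzyme of serine synthesis, at 20.2, 34.3 and 15.4 FPKM in MIX and 17.4, 24.4 and 14.4 FPKM in PA (0.26 ± 0.17). ASNS, which makes asparagine, was at 17.8, 37.1 and 18.3 FPKM in MIX and 17.2, 31.4 and 15.7 FPKM in PA (0.16 ± 0.12). Both were higher in 3 of 3 cows, with the widest PSPH gap in cow 2 (0.15 without it). TRIB3 and DDIT4 differed by -0.14 ± 0.15 and -0.17 ± 0.12, and DDIT4 by -0.02 without cow 2. In the NRF2 list 16 of 28 averaged higher, and HMOX1, which breaks down heme, differed by -0.01 ± 0.10.

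Inflammatory genes had no common direction. Of 22 tested members 13 averaged higher and 9 lower in MIX, with a median of 0.03 and a range from -0.44 to 0.31. IL6 ranged with the cow, at 162, 5.52 and 27.4 FPKM in PA and 196, 4.51 and 27.7 FPKM in MIX, so that its difference of 0.02 ± 0.36 has a wide interval (-0.79 to 0.83). CCL2, which draws monocytes, was at 84.8, 49.2 and 44.1 FPKM in PA and 91.9, 43.2 and 47.4 FPKM in MIX (0.01 ± 0.09). PTGS2, the inducible prostaglandin synthase, was higher in MIX in cow 3 alone (0.11 ± 0.13, and -0.12 without that cow). PTGES, which makes prostaglandin E2 from its product, was lower in 3 of 3 cows, at 60.2, 39.9 and 34.4 FPKM against 66.0, 48.2 and 35.5 FPKM (-0.15 ± 0.06), and was -0.09 without cow 2. CXCL5, a neutrophil chemokine, differed by 0.10 ± 0.16, and its reads may be shared with near-identical chemokines. Interferon response genes averaged lower for 11 of 16 with a median of -0.05, and -0.03 without cow 2. IRF7, a factor of that response, was lower in 3 of 3 cows (-0.23 ± 0.09).

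Extracellular matrix genes averaged higher in MIX for 29 of 35 members, with a median of 0.07. MIX was higher in all 3 cows for 14 members and lower in all 3 for 0, against 14.6% and 12.2% of all genes. The median was 0.09 in cow 1, 0.01 in cow 2 and 0.14 in cow 3, where 33 members were higher, and it was 0.02 with 22 higher without cow 3. In cow 3 the PA library was under CON for 34 of the 35 and MIX was under CON for 23. The share of all genes under CON in that cow was not counted. COL4A1, a basement membrane collagen, was higher in 3 of 3 cows, at 86.4, 428 and 346 FPKM in MIX and 69.8, 388 and 315 FPKM in PA (0.19 ± 0.07, 0.03 to 0.36). Its partner COL4A2 differed by 0.19 ± 0.09, and by 0.09 without cow 1.

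POSTN, a matricellular protein of fibroblasts, had the largest difference in the list, and it came from cow 3. It was at 8.80, 81.4 and 4.98 FPKM in PA, and MIX stood above PA by 0.10, 0.04 and 1.12. The difference was 0.42 ± 0.19 (-0.01 to 0.86), and 0.07 without cow 3. COL1A1, the main fibrillar collagen, was at 2848, 11395 and 5857 FPKM in MIX and 2841, 11174 and 5271 FPKM in PA (0.06 ± 0.15). DCN, a small proteoglycan counted with the fibroblast markers, averaged lower in MIX and was lower in 3 of 3 cows, with a narrow overlap of the groups. It was at 793, 897 and 800 FPKM in MIX and 1001, 1013 and 890 FPKM in PA (-0.22 ± 0.09, -0.42 to -0.03).

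Matrix proteases and their inhibitors averaged higher for 15 of 21 members, with a median of 0.10, which was 0.04 without cow 3. MMP11, a stromal protease, was at 25.9, 28.2 and 13.4 FPKM in MIX and 21.6, 28.4 and 9.31 FPKM in PA (0.24 ± 0.08), and was 0.12 without cow 3. PLAUR, the urokinase receptor, was at 106, 102 and 70.3 FPKM in MIX and 94.1, 96.1 and 48.0 FPKM in PA (0.26 ± 0.13). Both had their widest gap in cow 3, and PLAUR was higher in 3 of 3 cows and was 0.13 without cow 3. GREM1, a secreted BMP antagonist, was at 106, 75.4 and 46.9 FPKM in MIX and 86.8, 77.7 and 28.7 FPKM in PA (0.31 ± 0.12), and was 0.12 without cow 3.

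Contractile genes averaged higher in 16 of 18 cases, with a median of 0.06 and medians of 0.06, 0.07 and 0.03 in cows 1 to 3, and a median of 0.04 without cow 1. ACTA2, smooth muscle actin, was at 356, 2009 and 1288 FPKM in MIX and 343, 1793 and 1172 FPKM in PA (0.12 ± 0.08, -0.05 to 0.29), and its reads may be shared with ACTG2, at 0.13 ± 0.07. Both were higher in MIX in 3 of 3 cows. In the IGF system IGFBP2, which binds insulin-like growth factors, was at 49.0, 266 and 675 FPKM in MIX and 34.9, 219 and 686 FPKM in PA (0.25 ± 0.09), and was 0.13 without cow 1. IGFBP5, another such carrier, spanned 18.6 to 1351 FPKM in MIX and 21.1 to 1234 FPKM in PA, and its difference of -0.07 ± 0.60 is the least certain of the genes named.

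The remaining lists had medians between -0.05 and 0.05. Glycolysis and hypoxia genes averaged lower for 20 of 29 members (median -0.02), with 26 lower in cow 2 and 6 in cow 1, and their median was 0.03 without cow 2. Nuclear-encoded oxidative phosphorylation genes averaged lower for 17 of 31 (median -0.01), and SDHC and NDUFB5, subunits of complexes II and I, were lower in 3 of 3 cows by -0.12 ± 0.05 and -0.13 ± 0.05. DNA replication genes averaged lower for 19 of 34 and insulin signalling genes for 11 of 21, among them SLC2A4, the insulin-responsive glucose transporter, at 3.68, 0.800 and 2.68 FPKM in MIX and 4.87, 1.38 and 2.88 FPKM in PA (-0.27 ± 0.11). WNT and TGF-beta genes averaged higher for 24 of 33 (median 0.05, and 0.01 without cow 1). Adipogenic transcription factors were split 11 to 11, with CEBPB at -0.03 ± 0.14 and CEBPD at -0.08 ± 0.07, and of the 7 adipocyte markers tested 6 averaged lower (median -0.05). Lipolysis genes averaged lower for 4 of 5 tested members and IGF system genes higher for 7 of 12. Autophagy genes averaged higher for 18 of 30, phospholipid genes for 13 of 20, and apoptosis regulators for 12 of 22, against 53.2% of all genes tested.

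**Figure D5:**
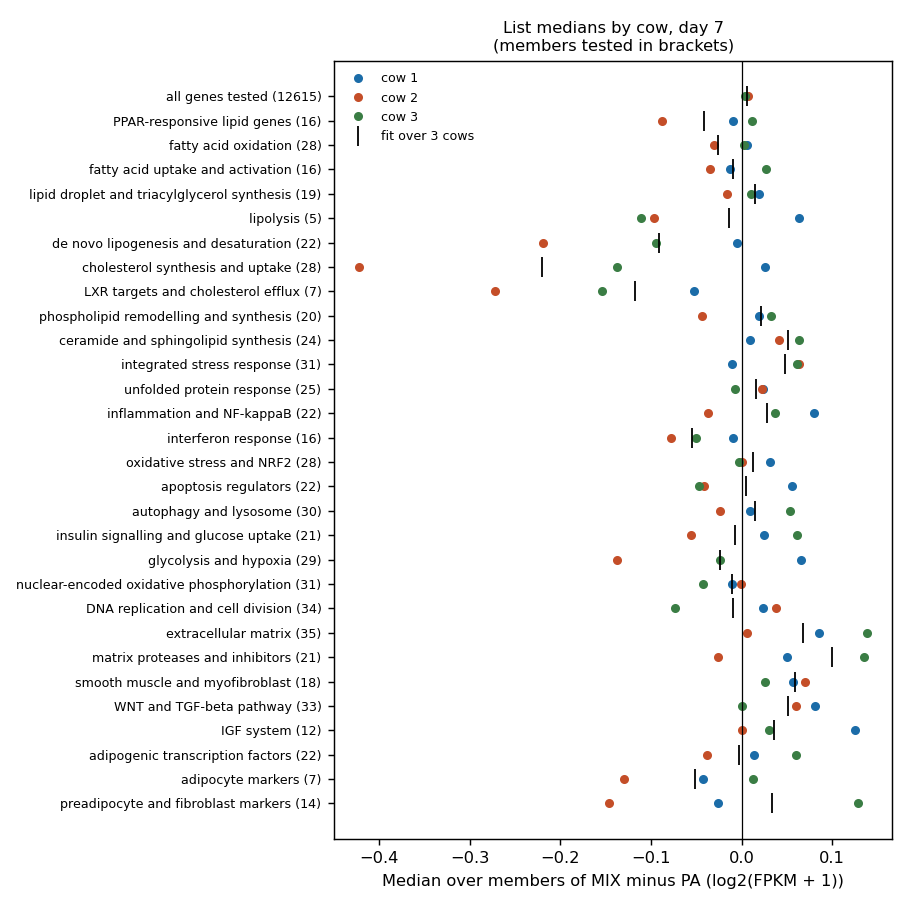
Median MIX minus PA difference (horizontal axis, log2(FPKM + 1)) of each list with at least 5 tested members, 1 point per cow and a tick for the fit over 3 cows. The cholesterol list lies lowest at -0.22, with cow 2 at -0.42 and cow 1 at 0.03, and the matrix protease list highest at 0.10.

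The design also allows MIX to be set against the level expected if it lay between PA and OA in proportion to the dose, at 60% of the PA and 40% of the OA value on the log2 scale. No gene of 12615 departed from this value past the threshold in limma's fit (0%), with 604 at an unadjusted p under 0.05 and a lowest adjusted p of 0.777, and edgeR called 0 (557 at an unadjusted p under 0.05). OA minus PA and MIX minus PA share the PA libraries, so their values are given only side by side. SCD differed by -0.43 in MIX and -0.55 in OA from PA, and its departure from the proportional value was -0.21 ± 0.25. FADS1 differed by -0.33 and -0.29, FABP3 by -0.53 and -0.70, and HMGCS1 by -0.26 and -0.31. ANGPTL4 differed by 0.10 in MIX and 0.41 in OA, with a departure of -0.07 ± 0.11, and PLIN2 by -0.06 and 0.24, with a departure of -0.15 ± 0.06. The cholesterol list had a median of -0.22 in MIX minus PA and -0.22 in OA minus PA. By cow the OA minus PA median was 0.13, -0.61 and -0.16, with OA above PA for 22 of the 28 members in cow 1. For all genes tested the OA minus PA median was 0.01 in each cow. The share of all genes with OA above PA in cow 1 was not counted.

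The same comparison was made at day 4 in 3 other cows, whose cells had received the fatty acids from induction onward. The MIX minus PA difference did not differ between day 7 and day 4 past the threshold for any of 12132 genes in limma's fit (0%). At an unadjusted p under 0.05 there were 487 genes, and edgeR called 0 with 426 at that level. At day 4 the cholesterol list had a median of 0.00 over its 28 members and the lipogenesis list a median of -0.01. TMCO1 differed by 0.04 ± 0.06 at day 4, PRAP1 by -0.01 ± 0.12 and RNF152 by 0.01 ± 0.22, against -0.30, 0.46 and 0.82 at day 7. TMCO1, PRAP1 and RNF152 were picked for their small p at day 7. That choice by itself favours a smaller difference in any other set, so their values do not show a change between the days. SCD differed by -0.20 ± 0.25 at day 4 and HMGCS1 by 0.13 ± 0.23. Each difference is within the table of its day. Day, cows and the start of treatment changed together between these sets and cannot be told apart.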

How the data were processed

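RNA of 24 cultures was sequenced. The day 7 table the authors deposited holds FPKM per gene and library, and the deposited day 4 table also holds a raw count per gene. The submitters' processing notes name featureCounts 1.5.0-p3, StringTie 1.3.3b and FastQC 0.11. Not given in the sources used here are the aligner, the build and the strand setting. Day 7 reads were recovered from FPKM and gene length, 100% whole within 0.01.

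Genes with 1 FPKM in at least 3 of the 12 day 7 libraries were transformed to log2(FPKM + 1) and compared by limma-trend 3.58.1 (R 4.3.3), two-sided, with cow as a block and Benjamini-Hochberg adjustment at 0.05. A fold change on this scale understates the change of low genes. The block was used because a cow number names 1 animal in the 4 groups of a day. Deviations from the group mean correlated at r = 0.842 to 0.859 in the 3 same-cow pairs of MIX and PA and at most -0.351 between cows. Such deviations cancel out within each group, which by itself pushes the values between cows to the negative side. P-values cover 1 culture per cow and treatment. Day 4 was fitted with day 7 in all 24 libraries. Alternatives were edgeR 4.0.16 and DESeq2 1.42.0 on recovered reads, other filters, pseudocounts and scaling, and leaving out libraries or cows. The fits were also run on simulated reads. There the treatments of a cow shared the same mean apart from set changes in MIX, so the run does not cover effects that vary by cow. Figures used Python 3.11.15 and matplotlib 3.10.9.

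The comparison, the 32 gene lists (725 of 752 symbols found, 1 by an older symbol) and the tests were chosen with earlier results of these data known. Named genes were the 10 with the smallest p each way (with a symbol, 1 direction in 3 cows and 2 FPKM or more in the higher group's mean), a fixed set of 37 lipid, stress and inflammation genes, and up to 4 members per list with the smallest p. FDFT1, SCAP, NPC1, SREBF2, MLXIPL, SPTLC1, COL1A1, CEBPB and CEBPD were added after their values were seen. Genes with near-identical copies may share reads. Some members are counted in their lists but not reported here by name.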

Additional observations from a re-analysis of the deposited data

How the results depend on the processing

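The count of genes past the adjusted threshold for MIX against PA was 0 in each of the 18 alternatives run. Without the replicate block limma called 0 genes (62 at an unadjusted p under 0.05), and edgeR without it, chosen after seeing the data, called 0 (37). With the 6 compared libraries alone limma called 0 (672), with a pseudocount of 0.1 it called 0 (478), with no filter 0 of 19847 (777) and with a filter at 5 FPKM 0 of 8950 (319). Leaving out a cow gave 0 each time (368 to 540), and so did leaving out 1 MIX or PA library (430 to 594). The departure from the proportional value and the difference between days also gave 0 under all alternatives, with 53 and 27 at an unadjusted p under 0.05 without the block. Among list medians recomputed under the alternatives, 550 moved by no more than the spread between cows and 25 by more. Among values of named genes, 2563 moved by no more than their SE and 237 by more. Leaving out 1 of 3 cows can hardly move a mean past either limit. These counts therefore do not show that a value holds without a given cow. The medians of the cholesterol and lipogenesis lists depended on cow 2, at -0.04 and -0.04 without it, and that of the matrix list on cow 3, at 0.02 without it. With 3 cows the median half-width of an unadjusted 95% interval was 0.19 (log2). Smaller differences could not be told from 0 for a typical gene. A difference had to be larger still to pass the adjusted threshold, which PRAP1 and RNF152 did not. RNF152 and the snoRNAs rested on few reads.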
